A study of Mus musculus with 12 samples.

Results

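Retinal levels of 34 genes of rod phototransduction and the rod outer segment were followed in 12 RNA-seq libraries of the mouse optic neuritis model. The genes were chosen by name for their known role in rods. All 34 symbols matched 1 identifier each among the 54532 gene identifiers of the tables, and 34538 of these identifiers were counted at least once. Every library came from retina of wild type C57BL/6 mice at an age of 13 weeks, and the mice were female. The 4 groups, with 3 libraries each, were sham control mice (SHAM), mice immunized with the myelin oligodendrocyte glycoprotein peptide in complete Freund's adjuvant with pertussis toxin (MOG), and mice that were immunized in the same way and then needled under xylazine and ketamine anaesthesia at the acupoint GB20 (GB20) or at the control acupoint GV16 (GV16). The treatment of the SHAM mice, with any anaesthesia of SHAM and MOG mice, is not given in the sources used here, so that needling and the anaesthesia before it cannot be told apart. Each experiment was repeated with 2 or 3 mice in a group, and whether a library pools mice is not stated, so that the p-values below measure the spread between these libraries.

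Rods are the photoreceptors of dim light and the most common cell of the mouse retina. In the dark, cyclic GMP keeps a cation channel of the outer segment open. Light activates the visual pigment, which switches on the G protein transducin and through it a phosphodiesterase that breaks down cyclic GMP, so that the channel closes. Recovery needs shut-off of the pigment and of transducin, and new cyclic GMP from guanylate cyclases that calcium-binding activator proteins control. The discs that hold this machinery are renewed throughout life, and the transcription factors Crx, Nrl and Nr2e3 direct the expression of its genes. The model is known for damage to retinal ganglion cells and the optic nerve, and the comparisons ask whether the genes of the light-sensing cell also differed after immunization (MOG vs. SHAM), after needling (GB20 vs. MOG and GV16 vs. MOG) and between the needling sites (GB20 vs. GV16).

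Crx and related homeodomain factors bind the core TAATCC, and the sequence around the start site of some of the 34 genes carries it. RefSeq windows of 300 bases, from 250 before to 50 after the start on GRCm38.p6, were matched for 27 of the 34 genes. TAATCC was found on either strand in 11 of these 27 windows (40.7%), beside 7.06% of all 32851 windows. These 11 were the windows of Abca4, Aipl1, Cnga1, Cngb1, Crx, Gnb5, Gngt1, Guca1a, Gucy2e, Gucy2f and Sag. TGCTGA, a core of the sites read by Nrl and other Maf factors, was in 7 of 27 windows (25.9%, beside 19.5% of all), and the TATA sequence TATAAA was in 5 of 27 (18.5%, beside 13.6%). A match is a run of letters and not a measured binding site. Shown are the upstream bases of Guca1a and Gnb5, which return in the comparisons below, of Sag, whose window held all 3 motifs, and of Crx itself. They are written 5′ to 3′ on the strand of the gene and left out from the GENCODE start of the gene on, with every match of the 3 motifs in capitals (GGATTA is TAATCC on the other strand, and TTTATA is TATAAA). No match overlapped another.
Guca1a: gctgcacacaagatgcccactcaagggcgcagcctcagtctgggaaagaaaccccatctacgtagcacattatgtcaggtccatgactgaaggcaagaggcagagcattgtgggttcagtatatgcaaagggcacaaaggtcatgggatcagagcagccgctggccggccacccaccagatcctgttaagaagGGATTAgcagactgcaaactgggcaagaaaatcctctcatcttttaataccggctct
Gnb5: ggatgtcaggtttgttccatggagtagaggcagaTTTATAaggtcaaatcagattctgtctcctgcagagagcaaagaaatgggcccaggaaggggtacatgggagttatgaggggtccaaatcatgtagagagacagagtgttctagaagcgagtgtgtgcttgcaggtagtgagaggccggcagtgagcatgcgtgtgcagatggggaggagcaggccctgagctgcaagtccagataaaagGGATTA
Sag: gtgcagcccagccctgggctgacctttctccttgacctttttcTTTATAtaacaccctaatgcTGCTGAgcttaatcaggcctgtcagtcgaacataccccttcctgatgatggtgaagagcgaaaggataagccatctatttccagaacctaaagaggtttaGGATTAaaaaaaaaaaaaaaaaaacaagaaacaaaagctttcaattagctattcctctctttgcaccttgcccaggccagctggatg
Crx: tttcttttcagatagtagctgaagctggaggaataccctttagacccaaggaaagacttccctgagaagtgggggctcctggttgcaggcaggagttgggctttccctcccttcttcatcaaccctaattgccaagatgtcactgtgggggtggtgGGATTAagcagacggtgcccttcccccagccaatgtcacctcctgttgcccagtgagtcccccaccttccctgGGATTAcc
The bases lie at chr17:47400607-47400856 on the minus strand for Guca1a, at chr9:75306038-75306287 on the plus strand for Gnb5, at chr1:87803430-87803679 on the plus strand for Sag, and at chr7:15879969-15880205 on the minus strand for Crx. In Guca1a the TAATCC match began 57 bases before the RefSeq start, in Gnb5 it began 6 bases before, and in Sag 87 bases before. Crx held 2 matches, which began 94 and 21 bases before its start.

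The 34 genes were abundant in every library. Together they took between 6.10% and 6.62% of the counts of a library, whose totals ran from 15860278 to 19194280, and the lowest count of any of them was 1685 (Rdh8). Their summed level, in CPM (counts scaled to the library size after TMM, the trimmed mean of M-values), was 63371 ± 2071 in SHAM, 63351 ± 2664 in MOG, 63272 ± 2295 in GB20 and 64644 ± 2506 in GV16 (mean ± SD, n = 3 each). The ranges of the 4 groups overlapped. Beside the rod genes, the 11 listed markers of retinal ganglion cells were all lower in MOG than in SHAM by the edgeR test described below, with a median log2 fold change of -0.90 and a summed FPKM of 156 to 183 in MOG and 276 to 310.0 in SHAM. In GB20 vs. SHAM and GV16 vs. SHAM all 11 had a negative value with an unadjusted p under 0.05, with medians of -0.58 and -0.78. Of these 4 (Nefl, Nefh, Thy1 and Pou4f2) and 10 were called (9 and 10 with the replicate number as a block). The shares of all genes called, without the block, were 0.344% and 0.656%. None was called in GB20 vs. GV16 (10 positive, median 0.14). Vs. MOG none was called without the block. There 11 were positive in GB20 (median 0.13) and 8 in GV16 (median 0.11). An unadjusted edgeR p under 0.05 was reached by 4 and 0, beside 8.0% and 5.3% of all genes. Of 9 microglial markers Csf1r and C1qa were called higher in MOG vs. SHAM, where the summed FPKM was 21.5 to 24.8 in MOG and 11.05 to 17.1 in SHAM. Csf1r was called higher in GV16 vs. SHAM. The summed FPKM was 19.7 to 28.7 in GB20 and 21.5 to 24.3 in GV16. All 9 had a positive value vs. SHAM in MOG, GB20 and GV16, with medians of 0.38, 0.51 and 0.67. An unadjusted edgeR p under 0.05 was reached by 3, 5 and 6, beside 13.0%, 9.06% and 10.9% of all genes. Of 8 Müller cell markers, Aqp4 was higher in MOG vs. SHAM and lower in both needled groups vs. MOG, and Rlbp1 was lower in GV16 vs. SHAM. Of 10 cone markers only Opn1mw was called without the block, higher in GV16 vs. SHAM. An unadjusted p under 0.05 in edgeR was reached by 3 of the 10 in MOG vs. SHAM (beside 13.0% of all genes). It was reached by 3 in GB20 vs. MOG (8.0%) and 4 in GV16 vs. MOG (5.3%). The numbers were 0 in GB20 vs. GV16 (2.93%), 2 in GB20 vs. SHAM (9.06%) and 2 in GV16 vs. SHAM (10.9%). Without the block, no gene was called in any of the 6 comparisons among the markers of bipolar cells (8), amacrine and horizontal cells (10), pigment epithelium (7 of 8 tested), lens (2 of 6), blood vessels (6) and blood (3 of 5). Pigment epithelium markers had a summed FPKM of 8.76 to 13.1 in SHAM and 16.7 to 20.8 in MOG. GB20 had 17.5 to 20.8 and GV16 9.20 to 25.4. Unadjusted edgeR p was under 0.05 for 3 in MOG vs. SHAM (13.0% of all genes), 3 in GB20 vs. SHAM (9.06%) and 1 in GV16 vs. SHAM (10.9%). Blood vessels had 36.5 to 38.7 in MOG, 31.6 to 34.2 in GB20, 28.8 to 35.9 in GV16 and 32.3 to 37.5 in SHAM. Vs. MOG, 3 of 6 were under 0.05 at each site (8.0% and 5.3%). With the block, the Müller cell marker Vim and the microglial marker C1qb were also called higher in GB20 vs. SHAM, and the lens marker Crybb2 lower in GV16 vs. SHAM. In MOG vs. SHAM the block added C1qb and the pigment epithelium marker Lrat as higher, and Crybb2 and the cone marker Arr3 as lower. Against MOG it added Arr3 as higher in both needled groups, and the ganglion cell marker Sncg as higher in GB20. The genes of these small counts are named after their values were seen. In bulk retina, fewer cells of a type and less RNA per cell cannot be told apart. CPM and FPKM are relative to the library. A shared change of rod RNA that the scaling takes up would therefore not be seen in them. A bulk level also does not show which cells the RNA came from, and rod gene here means a member of the 34.

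Levels between genes were compared as the FPKM of the authors, which corrects the counts for gene length and depth. Gnat1, the alpha subunit of rod transducin, had the highest level at 3263 FPKM (mean of 12 libraries), followed by the disc rim proteins Prph2 at 1792 and Rom1 at 1398. Guca1a at 1016, Gnb1 at 971 and Rcvrn at 817 came next. At the low end were Gucy2f at 41.7, Impg2 at 47.9 and Rdh8 at 79.4. The plot of levels by gene shows a fall without steps over most of its length. Among the 33 pairs of neighbours in this order, the ranges over the 12 libraries overlapped in 28, and only Gnat1 over Prph2, Prph2 over Rom1, Pde6b over Nrl, Rgs9bp over Rp1 and Rdh8 over Impg2 were apart. FPKM divides by an annotated length that tracked the merged exon length of GENCODE (Spearman's rho 0.996 over genes), and it understates a gene whose annotation holds exons that rods seldom use.

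**Figure D1:**
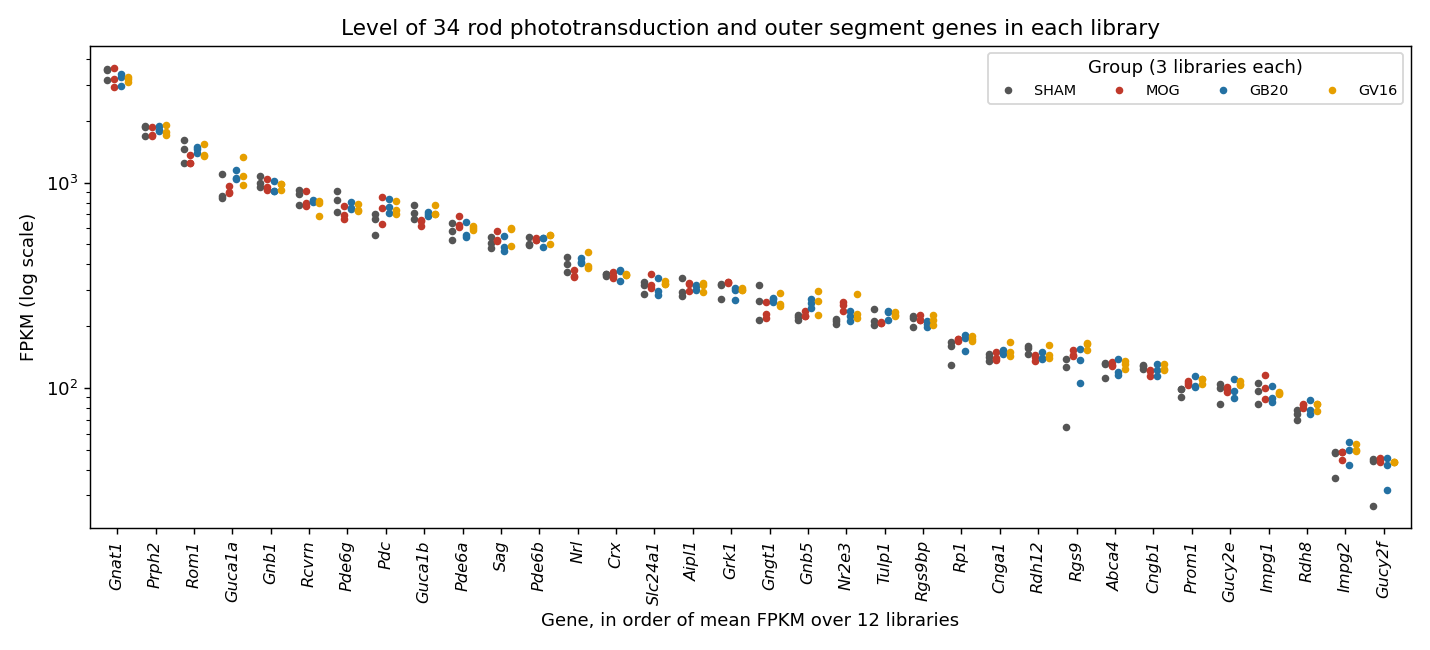
FPKM (log scale) of each of the 34 genes in each of the 12 libraries, 1 point per library, coloured by group and ordered by mean. Levels run from Gnat1 at 3263 to Gucy2f at 41.7, and the points of a gene lie close together except for the low points of Rgs9 and Gucy2f.

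Most of the genes were steady from library to library. The ratio of the highest to the lowest library was 1.13 for Crx and Prph2 and stayed under 1.6 in 32 of the 34 genes. Rgs9, the GTPase activator that ends the transducin signal, was the exception with a ratio of 2.56, and Gucy2f, a guanylate cyclase, followed with 1.71. The spread within groups, as a pooled SD on the log2 scale, had a median of 0.103 over the 34 genes, and was 0.054 for Crx, 0.26 for Gucy2f and 0.33 for Rgs9.

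For the rod genes 2 libraries stood apart, and the low values of Rgs9 and Gucy2f came from them. In SHAM replicate 2 and GB20 replicate 2, the deviation of the 34 genes from their means over 12 libraries ran against the exon length, with a Spearman's rho of -0.61 and -0.60. Over 10589 genes above a mean of 10 CPM the same rho was -0.59 and -0.40, and GB20 replicate 1 followed at -0.30, so that over all genes GB20 replicate 2 was less clearly apart. The 10 shortest of the 34 genes lay a median of 0.13 (log2) above their means in SHAM replicate 2, and the 10 longest lay 0.19 below. In GB20 replicate 2 these medians were 0.0089 and -0.15, so that mainly the long genes were shifted. Of the other 10 libraries the rho over the 34 genes was between -0.078 and 0.50. SHAM replicate 2 was the lowest library for 11 genes and the highest for 7, whereas GV16 replicate 2 was the highest for 11 and lay above the mean for 31 of 34. The cause of the pattern was not tested, and values without both libraries are given below where they bear on a result. The genes share libraries and depth, so these correlations are descriptions across genes.

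**Figure D2:**
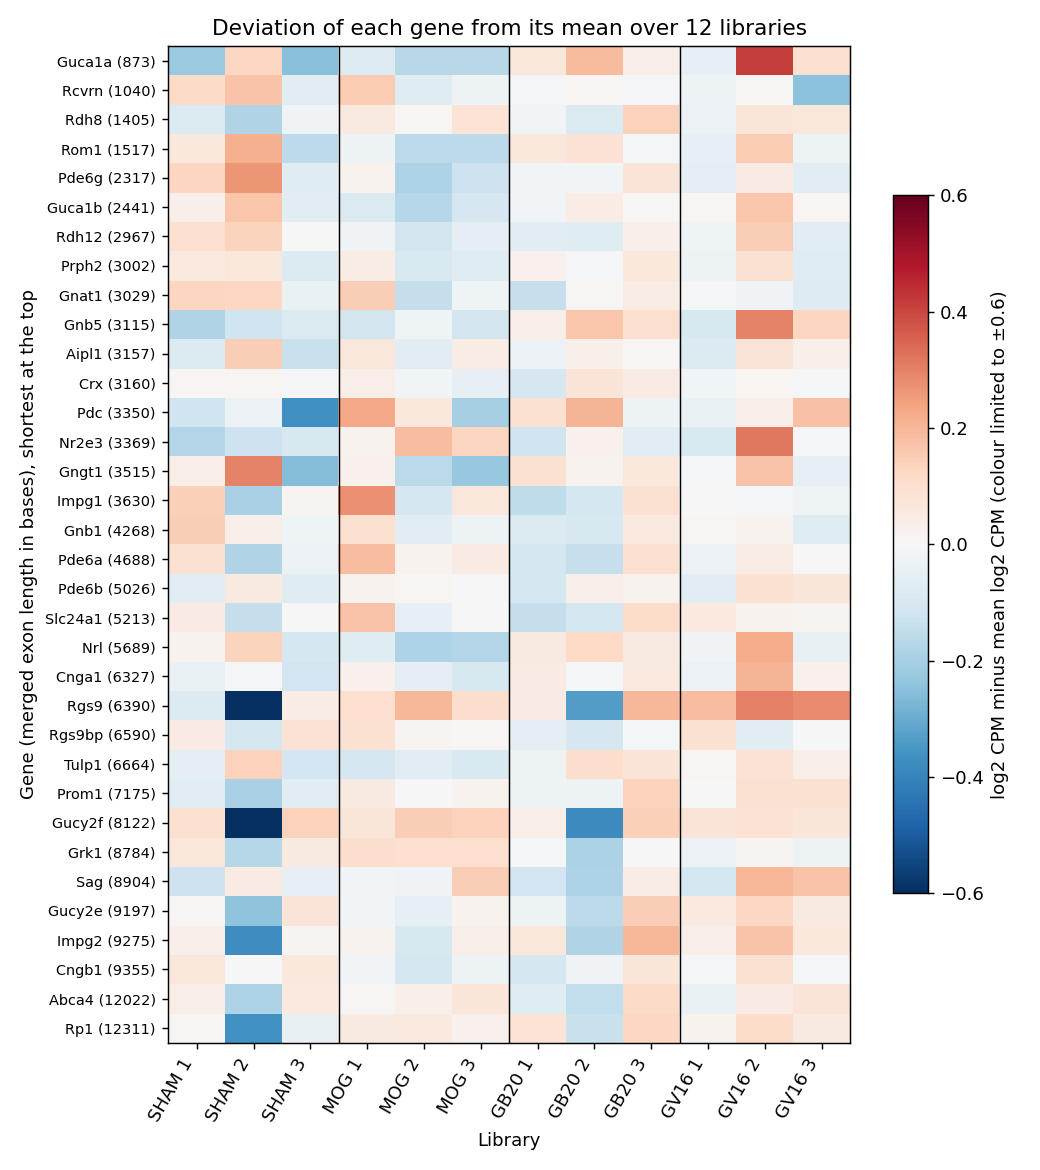
Deviation of log2 CPM from the mean of 12 libraries, for each gene (rows, ordered from the shortest to the longest merged exon length in bases, given in brackets) and library (columns), with colour limited to ±0.6. In SHAM 2 the upper rows are mostly red and the lower rows mostly blue. In GB20 2 the lower rows are mostly blue and the upper rows are mixed. Rgs9 and Gucy2f are lowest in both.

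**Figure D3:**
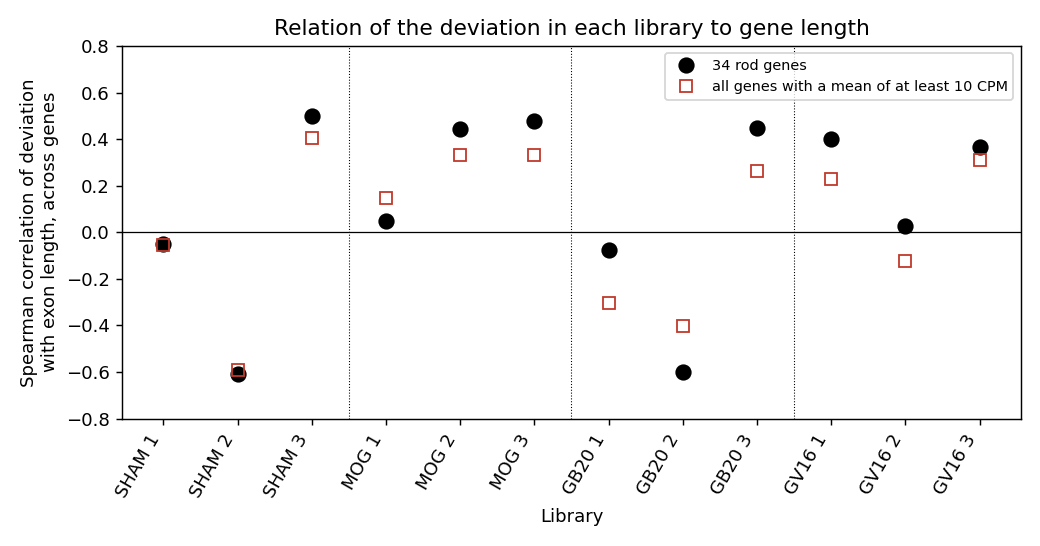
Spearman's rho between exon length and deviation from the mean in each library, for the 34 rod genes and for 10589 genes with a mean CPM of 10 or more. SHAM 2 and GB20 2 are the lowest at -0.61 and -0.60 for the rod genes.

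No rod gene was called in MOG vs. SHAM. Counts were tested with edgeR's quasi-likelihood test over all 18299 genes that passed the expression filter, which all 34 passed, and a gene was called at a Benjamini-Hochberg adjusted p under 0.05. By this test 0 of 34 were called, beside 1.34% of all genes tested, and DESeq2 and limma also called 0. With so low a background a count of 0 says little, and the intervals of the fold changes carry the result. They are intervals of levels relative to the library, and the absolute amount of rod RNA was not measured. The 95% confidence interval lay within ±0.5 on the log2 scale for 32 of the 34 genes and within a 2-fold change for 33, the exception being Rgs9. An interval reached a median of 0.175 to either side of its estimate, which is a 1.13-fold change. The median log2 fold change was 0.033 over the 34 genes and -0.0023 over all genes tested, with 20 positive and 14 negative, and the median size without sign was 0.090 beside 0.13 in all genes. At an unadjusted p under 0.05 there were 3 genes (1 higher, 2 lower) in edgeR, beside 13.0% of all genes, 8 in DESeq2 and 3 in limma. The share of all genes, here and below, is that of edgeR. The shares for DESeq2 and limma are not given, so their counts have no background beside them. Groups that did not overlap were seen for 6 genes higher in MOG and 3 lower, beside 7.87% and 8.34% of all genes. Without SHAM replicate 2 and GB20 replicate 2 the interval lay within a 2-fold change for all 34 genes, and 0 were called.

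No rod gene was called after needling at either site. In GB20 vs. MOG, 0 of 34 were called by edgeR, DESeq2 or limma, beside 0.24% of all genes in edgeR, and in GV16 vs. MOG again 0, beside 0.164%. The interval lay within a 2-fold change for all 34 genes in both comparisons, and within ±0.5 for 32 in each. The medians were -0.0074 in GB20 vs. MOG (17 positive, 17 negative) and 0.031 in GV16 vs. MOG (21 positive, 13 negative), beside 0.00084 and 0.0024 over all genes tested. At an unadjusted p under 0.05 there were 4 genes (3 higher) in GB20 vs. MOG and 4 (all higher) in GV16 vs. MOG in edgeR, beside 8.0% and 5.3% of all genes, 5 and 4 in DESeq2, and 1 in each in limma. All libraries lay higher than all MOG libraries for 6 genes in GB20 and 7 in GV16, beside 7.96% and 6.17% of all genes, and lower for 2 and 1, beside 7.71% and 6.45%. Both comparisons share the MOG libraries, so their values are given side by side and not as support of each other. The sites themselves were compared in GB20 vs. GV16, where 0 of 34 genes were called by each tool, beside 0.00546% of all genes, which is 1 gene, Gpnmb. There the median was -0.037 with 10 positive and 24 negative, 0 genes had an unadjusted p under 0.05 in edgeR, beside 2.93% of all genes, 1 in DESeq2 and 0 in limma, and no gene had groups that did not overlap, beside 4.03% of all genes for the higher and 4.32% for the lower direction. The interval of the difference between the sites was within a 2-fold change for all 34 genes.

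Against SHAM, the needled groups gave 0 called genes as well. DESeq2 and limma also called 0. In GB20 vs. SHAM the share of all genes called was 0.344% and the median 0.010, and in GV16 vs. SHAM it was 0.656% and the median 0.047, beside 0.00085 and -0.0041 over all genes tested. With the replicate number as a block, 182 and 236 of all genes were called instead of 63 and 120, and still 0 of the 34. Unadjusted p under 0.05 was reached by 2 genes in GB20 vs. SHAM and 5 in GV16 vs. SHAM in edgeR, all higher, beside 9.06% and 10.9% of all genes, by 3 and 7 in DESeq2, and by 1 and 3 in limma. Groups that did not overlap were seen for 4 and 5 genes, all higher, beside 5.66% and 6.86% of all genes in that direction and 7.09% and 7.6% in the other. The interval was within a 2-fold change for 34 and 33 genes, with Rgs9 outside it in GV16 vs. SHAM. The smallest adjusted p of any rod gene in the 6 comparisons was 0.231, for Gnb5 in GV16 vs. SHAM.

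**Figure D4:**
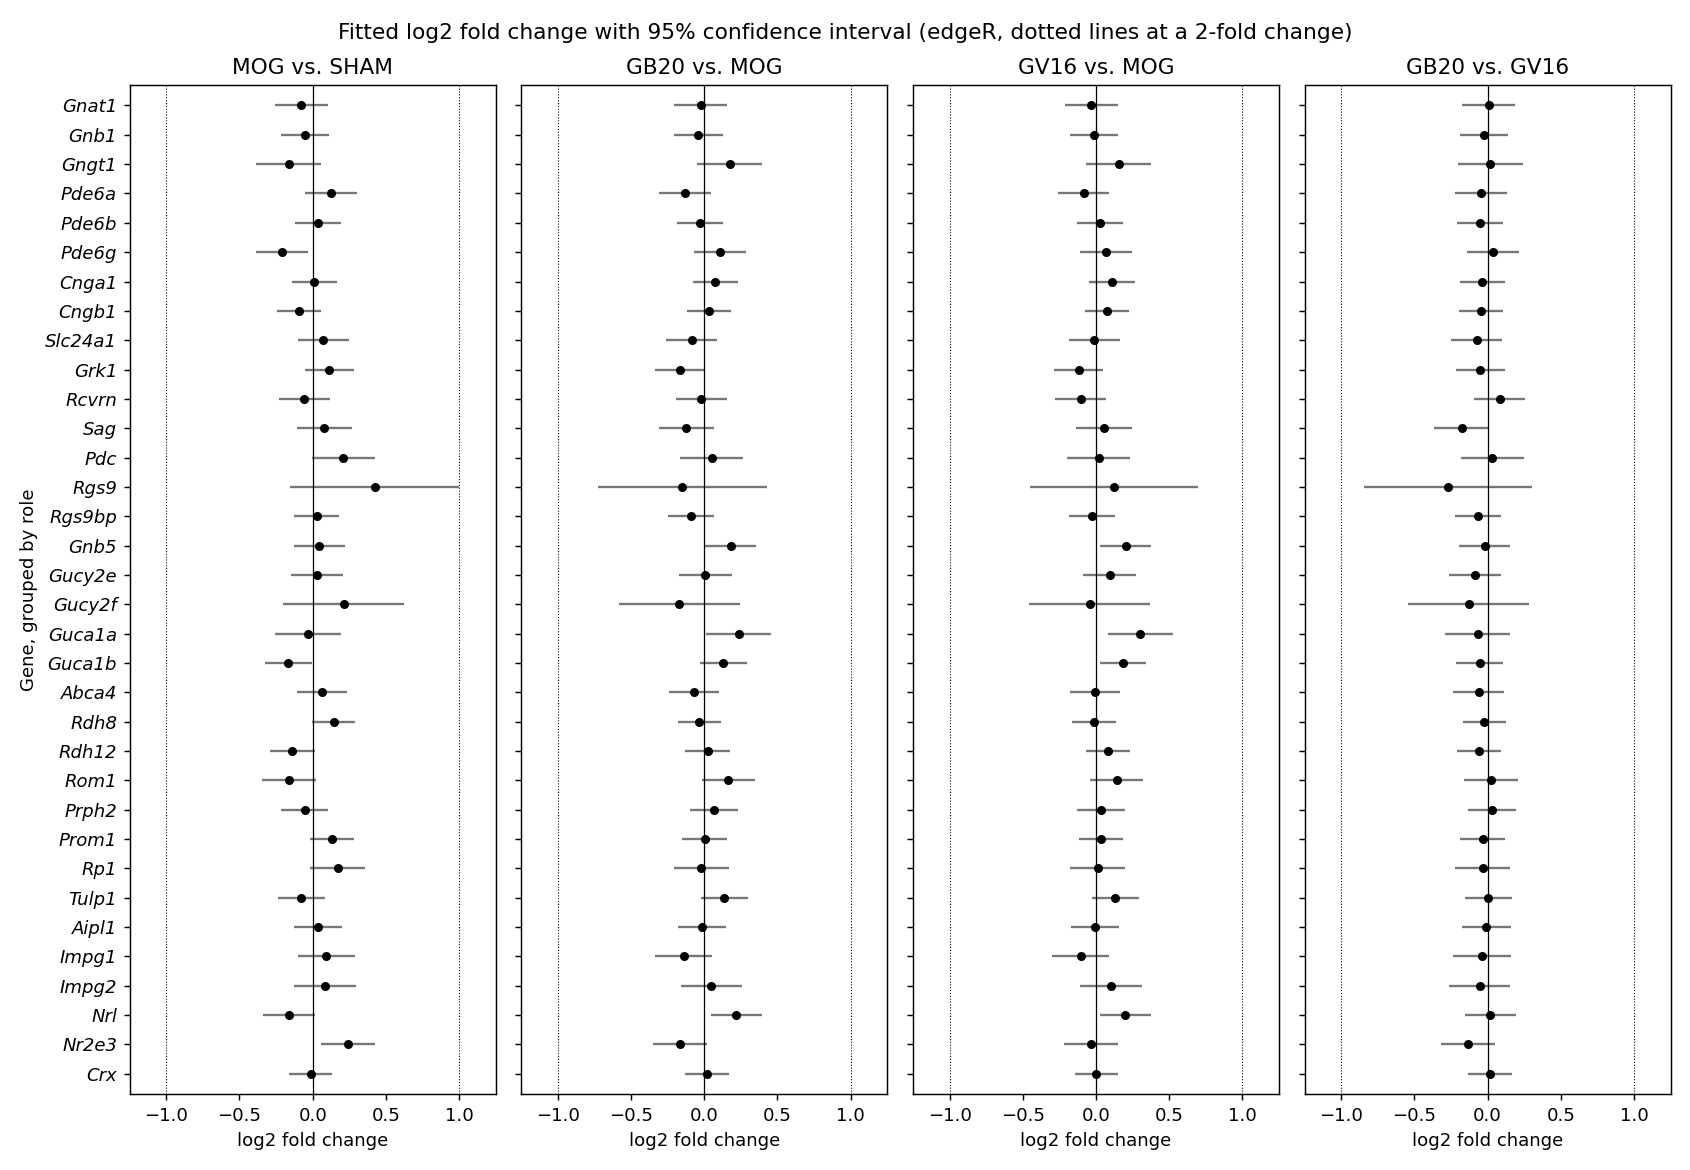
Fitted log2 fold change (points) with 95% confidence interval (lines) from edgeR for the 34 genes, grouped by role, in the 4 comparisons among SHAM, MOG, GB20 and GV16 that are named above each panel. Dotted lines mark a 2-fold change, and apart from Rgs9 in MOG vs. SHAM every interval lies between them.

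Transducin carries the signal from the pigment. Gnat1 gave 10876, 10831 and 9682 CPM for SHAM, 11003, 8992 and 9769 for MOG, 9033, 9995 and 10241 for GB20, and 9905, 9793 and 9419.6 for GV16, written here and below in the order of replicates 1, 2 and 3. The groups overlapped, with the highest value in MOG replicate 1 and the lowest in MOG replicate 2. The log2 fold change of Gnat1 in MOG vs. SHAM was -0.077 with an interval of -0.26 to 0.10. Its partners Gnb1, the beta subunit, and Gngt1, the gamma subunit, had -0.053 and -0.16, so that all 3 subunits had a negative value without a call. In the needled groups vs. MOG, Gnat1 and Gnb1 stayed between -0.04 and -0.015, and Gngt1 had 0.17 at GB20 and 0.16 at GV16. The ratio of Gnat1 to Gnb1, in FPKM, was between 3.17 and 3.60 in the 12 libraries.

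The phosphodiesterase is built of the catalytic subunits Pde6a and Pde6b and the inhibitory subunit Pde6g. Pde6g, at chr11:120447605-120453500, had 1935, 2128 and 1683 CPM for SHAM, 1796, 1559.7 and 1624 for MOG, 1749.8, 1753 and 1869 for GB20, and 1706, 1833 and 1690.5 for GV16. SHAM replicate 2 was the highest and MOG replicate 2 the lowest, and the ranges of SHAM and MOG overlapped. The log2 fold change in MOG vs. SHAM was -0.21 (SE 0.086, interval -0.38 to -0.029, edgeR adjusted p = 0.293), the second smallest p among the rod genes in that comparison. Without SHAM replicate 2 and GB20 replicate 2 it was -0.12. Pde6a and Pde6b had 0.12 and 0.039. The catalytic subunits kept a ratio of Pde6a to Pde6b between 0.971, in SHAM replicate 2, and 1.28, in MOG replicate 1.

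The channel subunits Cnga1 and Cngb1 and the exchanger Slc24a1 set the flow of sodium and calcium across the outer segment membrane. Slc24a1 had 1722, 1509 and 1668 CPM for SHAM, 1875, 1610.5 and 1663 for MOG, 1506, 1549 and 1798 for GB20, and 1735, 1689.6 and 1683 for GV16. These values overlapped across the groups, and the fold changes of the 3 genes in MOG vs. SHAM lay between -0.093 (Cngb1) and 0.072 (Slc24a1). Vs. MOG, Cnga1 had 0.076 at GB20 and 0.11 at GV16. The ratio of Cnga1 to Cngb1 was between 1.05 and 1.32.

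Shut-off of the pigment needs the kinase Grk1, its calcium-dependent inhibitor recoverin (Rcvrn) and rod arrestin (Sag), while phosducin (Pdc) binds the beta and gamma subunits of transducin. Rcvrn had 926, 962 and 815 CPM for SHAM, 949, 813 and 835 for MOG, 850.2, 859.7 and 849.8 for GB20, and 836, 858 and 721 for GV16. Its lowest value was in GV16 replicate 3 and its log2 fold change in GV16 vs. SHAM, -0.16, was the lowest of the 34 genes there (adjusted p = 0.502 in edgeR). Sag, at chr1:87803680-87845158, had 4333, 4883 and 4569.8 CPM for SHAM, 4680.1, 4655 and 5244 for MOG, 4363, 4155 and 4881 for GB20, and 4389, 5430.3 and 5329 for GV16. GV16 replicates 2 and 3 were the highest, and the difference between the sites, GB20 vs. GV16, was -0.18 with an interval of -0.37 to 0.013 and overlapping groups. Pdc, at chr1:150319417-150333906, had 2242, 2372 and 1883 CPM for SHAM, 2846, 2539.6 and 2122 for MOG, 2590.4, 2798 and 2385 for GB20, and 2365, 2490.1 and 2749.8 for GV16. All GB20 libraries lay above all SHAM libraries, with a log2 fold change of 0.26 (SE 0.10, edgeR adjusted p = 0.431), and the values in MOG vs. SHAM and GV16 vs. SHAM were 0.21 and 0.23. Grk1 was higher in each MOG library than in each SHAM library and lower in each needled library than in each MOG library, with 0.11, -0.17 and -0.12, and it was called in none of the 3.

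Rgs9, held at the disc membrane by Rgs9bp and in complex with Gnb5, speeds up the GTPase of transducin. Rgs9, at chr11:109225355-109298129, had 813, 415 and 889 CPM for SHAM, 925, 989 and 928 for MOG, 891, 682 and 989 for GB20, and 981, 1064 and 1048 for GV16. SHAM replicate 2 was far below the other SHAM libraries and GB20 replicate 2 was the lowest of GB20. In SHAM replicate 2 Rgs9 deviated by -1.05 (log2) from its mean, beside a median of -0.19 for the 10 longest genes. Rgs9, at an exon length of 6390 bases, is not among these 10, and the cause of its low value was not tested. In MOG vs. SHAM the log2 fold change was 0.42 with an interval of -0.15 to 1.001, and in GV16 vs. SHAM it was 0.55 with -0.031 to 1.12, the widest intervals of the 34 genes. Without SHAM replicate 2 and GB20 replicate 2 the values in MOG vs. SHAM and GV16 vs. SHAM were 0.16 (interval 0.00070 to 0.32) and 0.28 (interval 0.12 to 0.44, edgeR adjusted p = 0.125, between 0.125 and 0.735 over the alternatives). Rgs9bp had 0.027 in MOG vs. SHAM. Gnb5, at chr9:75306288-75345876, had 671, 699 and 717 CPM for SHAM, 704, 746 and 703 for MOG, 778, 854 and 812 for GB20, and 711, 936 and 832 for GV16. The needled libraries other than GV16 replicate 1 lay above all SHAM and MOG libraries. Gnb5 gave 0.18 in GB20 vs. MOG (SE 0.084, adjusted p = 0.601), 0.20 in GV16 vs. MOG (adjusted p = 0.873), 0.23 in GB20 vs. SHAM (adjusted p = 0.371) and 0.25 in GV16 vs. SHAM (adjusted p = 0.231), all in edgeR. Without GV16 replicate 1 the last of these was 0.34 and was called (adjusted p = 0.0479, between 0.0479 and 0.686 over the alternatives). Without GV16 replicate 2 it was 0.15, and the value in GV16 vs. MOG was 0.10. Exons of the antisense gene Gm19531 cover 7.96% of the exon bases of Gnb5, and without a stated strand setting their reads cannot be told apart.

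Guanylate cyclases Gucy2e and Gucy2f remake cyclic GMP, and Guca1a and Guca1b encode the proteins that activate them when calcium falls. Guca1a, at chr17:47394558-47400584, had 761, 967 and 745 CPM for SHAM, 840.0, 789.5 and 790.4 for MOG, 928, 1011 and 911 for GB20, and 856, 1181 and 948 for GV16. GV16 replicate 2 was the highest library, and all 6 needled libraries lay above all MOG libraries. The log2 fold change was 0.24 in GB20 vs. MOG (SE 0.11, adjusted p = 0.595 in edgeR) and 0.30 in GV16 vs. MOG (SE 0.11, adjusted p = 0.708 in edgeR), which were the highest of the 34 genes in both, and -0.031 in MOG vs. SHAM. In GV16 vs. SHAM it was 0.27 (edgeR adjusted p = 0.335), and it was called there in 4 of 22 alternatives, which included leaving out SHAM replicate 2 (0.40, adjusted p = 0.0482, between 0.0312 and 0.766 over the alternatives). Without GV16 replicate 2 it was 0.13, and the value in GV16 vs. MOG was 0.16. Guca1b, at chr17:47385393-47392967, had 1751, 1926 and 1641 CPM for SHAM, 1613, 1524 and 1600.2 for MOG, 1696, 1766 and 1724 for GB20, and 1731, 1923 and 1732 for GV16. Each MOG library was below each SHAM library and below each GV16 and GB20 library. Guca1b gave -0.17 in MOG vs. SHAM (adjusted p = 0.357 in edgeR), 0.13 in GB20 vs. MOG and 0.19 in GV16 vs. MOG (adjusted p = 0.887 in edgeR). Guca1a and Guca1b are neighbours that point towards each other, with 1590 bases between their ends. The cyclase gene Gucy2e had 0.032, 0.0069 and 0.094 in the same 3 comparisons, and of these only in GV16 vs. MOG did its groups not overlap, with each GV16 library above each MOG library. Gucy2f had 360.3, 219 and 371 CPM for SHAM, 355, 374 and 371 for MOG, 346, 259 and 373 for GB20, and 356, 359 and 355 for GV16. Of these 12 values 10 lay within a narrow band and SHAM replicate 2 and GB20 replicate 2 below it, so that the fold change in MOG vs. SHAM was 0.21 with both and 0.011 without them.

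**Figure D5:**
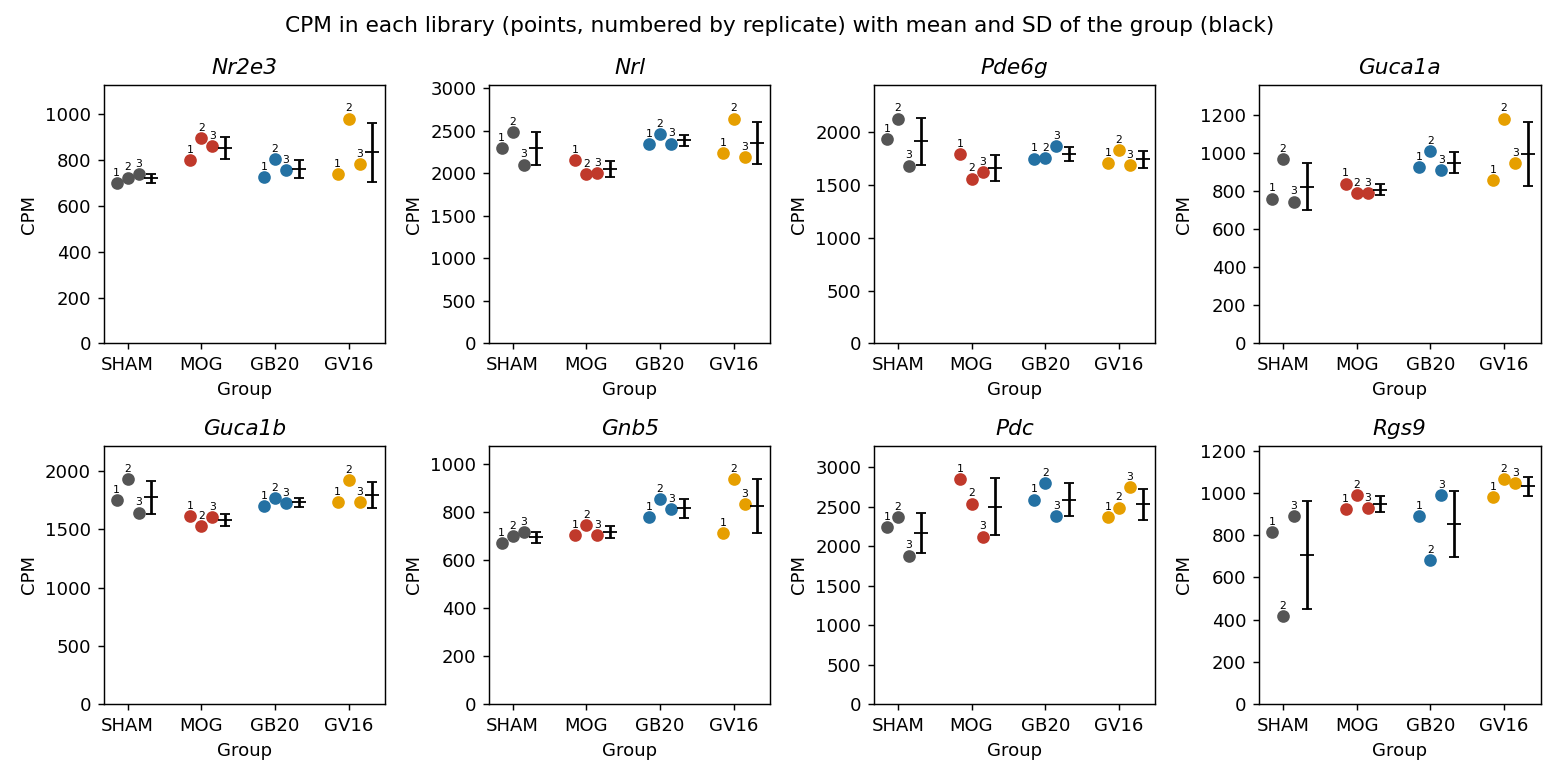
CPM of 8 rod genes in each library (points, numbered by replicate and coloured by group) with the mean and SD of each group (black bars, n = 3). The MOG points of Guca1a and Guca1b lie below all needled points, and SHAM 2 and GB20 2 are low for Rgs9.

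Clearance of spent retinal from the discs uses the transporter Abca4 and the retinol dehydrogenases Rdh8 and Rdh12. Rdh12 had 468, 481 and 439 CPM for SHAM, 432, 406 and 422 for MOG, 418, 416 and 447 for GB20, and 431, 485 and 418 for GV16. The MOG libraries lay below the SHAM libraries, with a log2 fold change of -0.14 and an interval of -0.29 to 0.013. Rdh8 was the reverse, with all MOG libraries above all SHAM libraries and 0.14, and Abca4 had 0.062. None was called. Vs. MOG the 3 genes stayed between -0.068 and 0.081 in both needled groups.

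Prph2 and Rom1 shape the disc rim, Prom1 and Rp1 act in disc formation and stacking, Tulp1 in protein transport to the outer segment, and Aipl1 is a chaperone for the phosphodiesterase. Prph2 had 5643, 5685 and 5116 CPM for SHAM, 5590.3, 5092 and 5144 for MOG, 5514, 5391 and 5653 for GB20, and 5299, 5773 and 5158 for GV16. The groups overlapped in all comparisons and the log2 fold changes of Prph2 were between -0.055 and 0.065. Its ratio to Rom1, in FPKM, was between 1.16 and 1.36. In MOG vs. SHAM the 6 genes had 3 positive and 3 negative values, from -0.16 for Rom1 to 0.17 for Rp1. Rom1 and Tulp1 were 0.16 and 0.14 in GB20 vs. MOG, with all GB20 libraries above all MOG libraries for each. Prom1 lay higher in every library of GB20, GV16 and MOG than in every SHAM library, with 0.13 in MOG vs. SHAM and 0.17 in GV16 vs. SHAM (adjusted p = 0.382 in edgeR). Exons of the antisense gene Gm16401 cover 5.91% of the exon bases of Prom1. Aipl1 had 0.035 in MOG vs. SHAM, -0.017 in GB20 vs. MOG and -0.0079 in GV16 vs. MOG.

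Impg1 and Impg2 are proteoglycans of the matrix around the outer segments. Impg1 had 386, 305 and 354 CPM for SHAM, 422, 326 and 367 for MOG, 314, 325 and 372 for GB20, and 348, 347 and 343 for GV16. MOG replicate 1 was the highest and SHAM replicate 2 the lowest, and the groups overlapped. In MOG vs. SHAM, Impg1 had 0.095 and Impg2 0.086, and the intervals were -0.10 to 0.29 and -0.12 to 0.30.

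The transcription factors held the smallest p of MOG vs. SHAM (Nr2e3) and of GB20 vs. MOG (Nrl). Nr2e3, a nuclear receptor that represses cone genes in rods, lies at chr9:59942771-59960659 and had 698, 722 and 737 CPM for SHAM, 798, 895 and 861 for MOG, 725, 802 and 754 for GB20, and 738, 979 and 780.0 for GV16. All MOG libraries lay above all SHAM libraries, and GV16 replicate 2 was the highest of the 12. Nr2e3 gave 0.24 in MOG vs. SHAM (SE 0.089, interval 0.06 to 0.43, edgeR adjusted p = 0.234), which was not called in any of the 22 alternatives. Between the sites it had -0.13 in GB20 vs. GV16, and 0.0036 without GV16 replicate 2. Exons of the lincRNA gene Gm15507, on the same strand, cover 1.81% of the exon bases of Nr2e3. Nrl, the leucine zipper factor that sets rod fate, lies at chr14:55518978-55524981 and had 2297, 2488 and 2103 CPM for SHAM, 2155, 1993 and 2006 for MOG, 2349, 2465 and 2351 for GB20, and 2235, 2644 and 2195 for GV16. Every MOG library was below every GB20 and GV16 library. Nrl gave -0.16 in MOG vs. SHAM, 0.22 in GB20 vs. MOG (SE 0.085, adjusted p = 0.496 in edgeR) and 0.20 in GV16 vs. MOG. The ratio of Nrl to Nr2e3, in FPKM, was 1.69 to 2.04 in SHAM, 1.32 to 1.60 in MOG, 1.82 to 1.92 in GB20 and 1.60 to 1.79 in GV16. The ratio was chosen as a description after the values were seen and carries no test. Crx was the steadiest of the 34 genes, at 357 ± 3.58 FPKM in SHAM, 354 ± 12.4 in MOG, 359 ± 25.3 in GB20 and 355 ± 2.64 in GV16 (mean ± SD, n = 3), and its log2 fold change lay between -0.013 and 0.019 in all 6 comparisons.

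Gene length went along with the fold changes in some of the comparisons. Over the 34 genes the log2 fold change in MOG vs. SHAM had a Spearman's rho of 0.40 with exon length, beside 0.41 over 10589 genes, and the 10 shortest had a median of -0.067 and the 10 longest 0.083. Without SHAM replicate 2 the rho was 0.059 beside 0.10, and the medians were -0.033 and 0.0099. In GB20 vs. MOG the rho was -0.35 over the 34 genes and -0.43 over all, and without both SHAM replicate 2 and GB20 replicate 2 it was -0.18 and -0.32. In GB20 vs. GV16 it was -0.47 and -0.39, and without both libraries -0.036 and -0.23, so that most of the trend over all genes remained in GB20 vs. MOG. In GV16 vs. SHAM it was 0.34 and 0.31, and without both -0.029 and -0.050. The rho was weaker in GV16 vs. MOG (-0.082 and -0.19) and in GB20 vs. SHAM (0.15 and 0.055), and without both libraries it was -0.076 and -0.19 in the former and -0.075 and -0.19 in the latter. Without SHAM replicate 2 the short gene Pde6g had -0.12 in MOG vs. SHAM in place of -0.21, and Guca1b had -0.097 in place of -0.17. Nr2e3, at an exon length of 3369 bases, had 0.21 to 0.29 in MOG vs. SHAM over all alternatives.

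A further 43 photoreceptor genes outside the 34, for the synapse, the inner segment, metabolism and transcription, were all tested. Outside GB20 vs. SHAM none was called. The number with an unadjusted p under 0.05 in edgeR was 8 for MOG vs. SHAM (beside 13.0% of all genes), 6 for GB20 vs. MOG (8.0%), 6 for GV16 vs. MOG (5.3%), 1 for GB20 vs. GV16 (2.93%), 4 for GB20 vs. SHAM (9.06%) and 7 for GV16 vs. SHAM (10.9%). Samd7, a transcriptional repressor of photoreceptors, was called in GB20 vs. SHAM. Samd7 had 164, 169.8 and 175 CPM for SHAM, 182, 206 and 198 for MOG, 219, 214 and 222 for GB20, and 192, 228 and 185 for GV16. Every immunized library lay above every SHAM library and the GB20 libraries lay closest together. Its log2 fold change in GB20 vs. SHAM was 0.36 (SE 0.078, interval 0.20 to 0.52, edgeR adjusted p = 0.0421), and the call was lost in 12 of 22 alternatives, with adjusted p from 0.00066 to 0.236. Mak, a kinase of the photoreceptor cilium, had the smallest p of this list in MOG vs. SHAM, with 0.29 (SE 0.083, edgeR adjusted p = 0.102), and Casz1, a zinc finger factor, had 0.27 there and 0.30 in GV16 vs. SHAM (edgeR adjusted p = 0.119 and 0.0985), and it was called in both with the replicate number as a block. The medians of the 43 genes were between -0.0094 and 0.064 in the 6 comparisons.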

How the data were processed

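The 12 retinal RNA-seq libraries were grouped by their labels, with 3 each in SHAM, MOG, GB20 and GV16. The authors enriched polyadenylated RNA, aligned reads with HISAT2 2.0.5 to mm10, as the submitters' processing notes state, and counted them per gene with FeatureCounts. The deposited counts are whole numbers without normalization, with 15860278 to 19194280 per library. The authors also deposited FPKM, computed from counts and gene length. The annotation release, strand setting and handling of multimapped reads were not given in the sources used here.

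Names, coordinates and exon lengths came from GENCODE vM21 (GRCm38), which holds 54409 of 54532 identifiers, and promoter sequences from RefSeq (GRCm38.p6). Counts were tested with edgeR 4.0.16 (R 4.3.3) after its expression filter (18299 genes), with TMM scaling, 1 mean per group in a robust quasi-likelihood fit of all 12 libraries (8 residual degrees of freedom), and Benjamini-Hochberg adjustment over all genes tested. Intervals are 95%. Between-gene levels used FPKM. CPM uses TMM library sizes. DESeq2 1.42.0 and limma 3.58.1, on log2(FPKM + 1), were alternatives, among 22 that also covered size factors, the filter, a replicate block, a length correction and left-out libraries. Same-numbered libraries deviated together for all 3 numbers between SHAM and each needled group, at correlations of 0.21 to 0.53, but not between the needled groups. The study repeated the experiment, so the blocked fit is given beside the fit without a block. The numbers are not taken to be shared runs. The fits were tested on simulated data. The member genes, the other gene lists and the tests were chosen with earlier results of these data known.

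Values per library were given, by rule, for the 3 rod genes with the smallest p in each comparison and for the gene with the highest mean FPKM of each role, and Gucy2f was added after its values were seen. Of the 43 other photoreceptor genes, those called and otherwise up to 3 by p in a comparison could be named. Python 3.11.15 and matplotlib 3.10.9 drew the figures.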

Additional observations from a re-analysis of the deposited data

How the results depend on the processing

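Over 22 alternatives, the median log2 fold change of the 34 genes moved by less than 0.047 in each of the 6 comparisons. That bound is the pooled SD of the library medians within groups. The medians ran from -0.082 to 0.070 in all, and the number called lower was 0 throughout. The number called higher was 1 instead of 0 in GV16 vs. MOG with no filter on low counts, and in GV16 vs. SHAM with no filter, with the length trend removed, and with both SHAM 2 and GB20 2 left out, an alternative chosen after seeing the data. That gene was Guca1a each time. Leaving out 1 library gave 0 to 1 called higher in GV16 vs. SHAM, with 1 without SHAM replicate 2 (Guca1a) and without GV16 replicate 1 (Gnb5), and 0 in the other 5 comparisons. The cause was not tested. Of the single genes named, the difference of Nr2e3 in GB20 vs. GV16, -0.13, ran from -0.21 to 0.0036 when 1 library was left out, and turned positive without GV16 replicate 2. The labels do not say that a replicate number marks a shared run. Deviations from the group means were correlated over 10597 genes. Same-numbered libraries were at over 0.1 for all 3 numbers in SHAM with GB20 (0.21 to 0.53) and SHAM with GV16 (0.23 to 0.30). The 0.53 was between SHAM replicate 2 and GB20 replicate 2. In the other 4 pairs of groups the values ran from -0.18 to 0.38, with -0.18 to 0.084 for GB20 with GV16. Libraries with different numbers ran from -0.53 to 0.30, so these correlations do not settle whether a number marks a shared run. With the replicate number as a block 0 rod genes were called, with medians of 0.038 in MOG vs. SHAM, -0.0092 in GB20 vs. MOG and 0.033 in GV16 vs. MOG, while the calls over all genes were 404, 73 and 47 instead of 245, 44 and 30. In GB20 vs. SHAM and GV16 vs. SHAM the medians were 0.011 and 0.050, and the calls over all genes 182 and 236 instead of 63 and 120, while GB20 vs. GV16 kept its count of 1. The block ended no call of a gene named here. It added calls of Casz1 in MOG vs. SHAM and GV16 vs. SHAM, and of Mak in MOG vs. SHAM. Among the cell type markers it added 5 of ganglion cells, Vim and C1qb in GB20 vs. SHAM, and Crybb2 in GV16 vs. SHAM. It also added Arr3, Lrat, Crybb2 and C1qb in MOG vs. SHAM, Arr3 and Sncg in GB20 vs. MOG, and Arr3 in GV16 vs. MOG. At this depth every rod gene had at least 1685 counts in each library, so that the spread between libraries and not the counting error limits the intervals.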
